A study of Homo sapiens with 3 samples.

Results

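The pregnancy-specific glycoprotein (PSG) genes were followed across 3 Illumina bead arrays of MDA-MB-231, a widely used human cell line derived from a triple-negative breast cancer. Every probe whose platform symbol was PSG1, PSG2, PSG3, PSG4, PSG5, PSG6, PSG7, PSG8, PSG9 or PSG11 was taken, which gave 19 probes for 10 genes among 48105 probes and 20045 named genes. The family was selected on the measured differences of PSG4, already known to stand far below both controls on the FBP1 array, so the values below are a description of these arrays. The copies are near-identical, so each probe is given by itself, and a probe may read more than the gene it is named for. The probes' own sequences were not used here.

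Total RNA came from 3 groups of 1 array each. The array called FBP1 carries cells transfected with an expression vector for FBP1, a fructose bisphosphatase of gluconeogenesis that runs counter to phosphofructokinase in glycolysis. The array called empty vector carries cells given the vector without the gene, and the array called wt carries a control whose handling the labels do not describe. All cells grew in DMEM with serum. The labels do not say how long after transfection the cells were taken, or from how many cultures. With 1 array per group no difference has a replicate check, no p-value is given for any comparison, and 3 arrays in all limit how precise any value can be.

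PSG proteins are secreted members of the carcinoembryonic antigen family, which belongs to the immunoglobulin superfamily, and are made in quantity by the syncytiotrophoblast of the placenta. They circulate in maternal blood during pregnancy and have been described as modulators of immune cells, platelets and blood vessel growth. PSG1 and PSG9 have been reported to activate latent transforming growth factor beta, and PSG1 to bind integrins and galectin-1. The genes lie in a tandem cluster on the long arm of chromosome 19, beside the related CEACAM genes. Along the chromosome the order in the RefSeq table is PSG3, PSG8, PSG1, PSG6, PSG7, PSG11, PSG2, PSG5, PSG4 and PSG9.

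Promoter sequence was at hand for 3 of the 10 genes, PSG3, PSG4 and PSG5, each with a probe detected on at least 1 array, and shows how alike the copies are. Each stretch below is from RefSeq (GRCh38.p14, chromosome 19, minus strand), runs from 250 bases before to 50 bases after the annotated start of the gene, and is written 5′ to 3′. Capitals mark a GC box (CCCGCCC) or a GT box (CCCACCC), the letters recognised by factors of the SP and KLF families.
PSG4 (chr19:43205589-43205888): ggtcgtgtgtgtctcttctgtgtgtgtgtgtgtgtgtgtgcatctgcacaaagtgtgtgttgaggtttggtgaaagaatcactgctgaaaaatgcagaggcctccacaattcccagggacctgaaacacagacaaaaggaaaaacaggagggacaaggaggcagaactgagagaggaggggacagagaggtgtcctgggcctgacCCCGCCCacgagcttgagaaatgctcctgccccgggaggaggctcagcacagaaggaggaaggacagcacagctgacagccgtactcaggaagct
PSG3 (chr19:42740432-42740731): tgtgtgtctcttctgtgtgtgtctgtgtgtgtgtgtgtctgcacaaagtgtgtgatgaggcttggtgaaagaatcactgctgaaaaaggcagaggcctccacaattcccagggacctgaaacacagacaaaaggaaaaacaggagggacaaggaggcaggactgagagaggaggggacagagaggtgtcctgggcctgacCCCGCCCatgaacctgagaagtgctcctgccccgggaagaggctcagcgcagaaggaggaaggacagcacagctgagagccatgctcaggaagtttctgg
PSG5 (chr19:43186487-43186786): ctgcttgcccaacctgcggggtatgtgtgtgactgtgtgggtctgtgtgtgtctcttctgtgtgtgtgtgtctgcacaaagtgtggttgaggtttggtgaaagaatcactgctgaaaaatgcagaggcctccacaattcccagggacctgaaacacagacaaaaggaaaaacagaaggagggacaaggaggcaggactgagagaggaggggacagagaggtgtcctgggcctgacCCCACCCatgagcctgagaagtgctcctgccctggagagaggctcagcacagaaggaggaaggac
Over their aligned bases the promoters of PSG3 and PSG4 were 94.2% identical, those of PSG3 and PSG5 95.5%, and those of PSG4 and PSG5 94.1%. The 40 bases just before the capitals were the same in all 3 promoters. Counted from 1 at the first capital, PSG5 differed from PSG4 within the capitals by G4A. The capitals began 50 bases before the annotated start in PSG3, 45 in PSG4 and 15 in PSG5. Of 35116 promoters of the same length, 33.1% held CCCGCCC and 19.6% held CCCACCC on either strand, where the motifs may overlap. The nuclear receptor motif AGGTCA, present in 13.8% of them, was not found in these windows on either strand. A match of letters is a description and shows no binding.

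Before the results, the arrays were set against their labels. For FBP1 itself, read by 1 probe (ILMN_1728799), the wt signal was 530.8, the empty vector signal 678.6 and the FBP1 array's signal 1063.5. VIM, ZEB1, CD44, CAV1 and AXL, which mark the mesenchymal-like state of this line, were detected on all 3 arrays, and SPARC was not. ESR1, PGR and GATA3 were not detected on any array, whereas EPCAM, listed as not expected, was detected on all 3. The line is known to lack CDKN2A and MTAP, yet 2 of 3 probes of CDKN2A and the 1 of MTAP were detected on the FBP1 array and on neither control. CDKN2A (ILMN_1717714) gave a signal of 89.0 on the wt array, 88.9 with the empty vector and 120.6 on the FBP1 array. Its probe ILMN_1744295 gave 87.9, 82.5 and 105.2 in the same order, and ILMN_1757255, detected on none, 84.1, 83.0 and 78.6. MTAP (ILMN_1753639) gave 85.1, 97.7 and 107.5 in the same order. Taken by themselves, the detected probes of these genes go against the label of the FBP1 array as cells of this line. Their signals were not far above that array's median signal of 91.7, however. CDKN2A probe ILMN_1717714 had a detection p-value of 2.7e-10 there and stood at least 2.0-fold above each control. By at least 1.5-fold, 3 of the 4 probes were higher on the FBP1 array than on the wt array, and 2 than on the empty vector array. Of all probes, 3.8% and 3.2% were that much higher and detected on at least 1 of both arrays. Of all probes, 3.21% were detected on the FBP1 array and on no control. Whether the array carries this line was not tested. The levels of the line's markers differed between arrays as well. EPCAM was higher on the FBP1 array than on the wt array by 0.74 (log2, ILMN_2160210), 0.70 (ILMN_3249032) and 0.29 (ILMN_2160209). The detected probes of the mesenchymal markers had a median FBP1 difference of -0.44 from the empty vector array and -0.27 from the wt array. The part of any of these in the PSG differences was not tested.

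PSG probes were detected mostly on the controls. At a detection p-value under 0.01, which asks whether a signal stands above the array's negative controls, 8 of the 19 PSG probes were detected on the wt array, 5 with the empty vector and 1 on the FBP1 array. These p-values did not follow the signal alone. On the wt array CYP19A1 (ILMN_1725234) was detected at a signal of 95.9, and PSG7 probe ILMN_1651656 was not at 96.2. Calls near the limit are therefore uncertain. The wt probes belonged to 6 genes (PSG3, PSG4, PSG5, PSG6, PSG7 and PSG9) and the empty vector probes to 5. Of all probes, 41.8% were detected on the wt array, 41.9% with the empty vector and 42% on the FBP1 array. No PSG probe was detected on the FBP1 array and on no control, a pattern that 3.21% of all probes showed. In the other direction, 7 PSG probes of 6 genes were detected on the wt array and not on the FBP1 array, against 4.49% of all probes, and 4 of these were detected on the empty vector array as well, against 1.71% of all probes. The other 3, all of PSG4 and PSG5, were detected on the wt array alone, as 2.78% of all probes were.

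**Figure D1:**
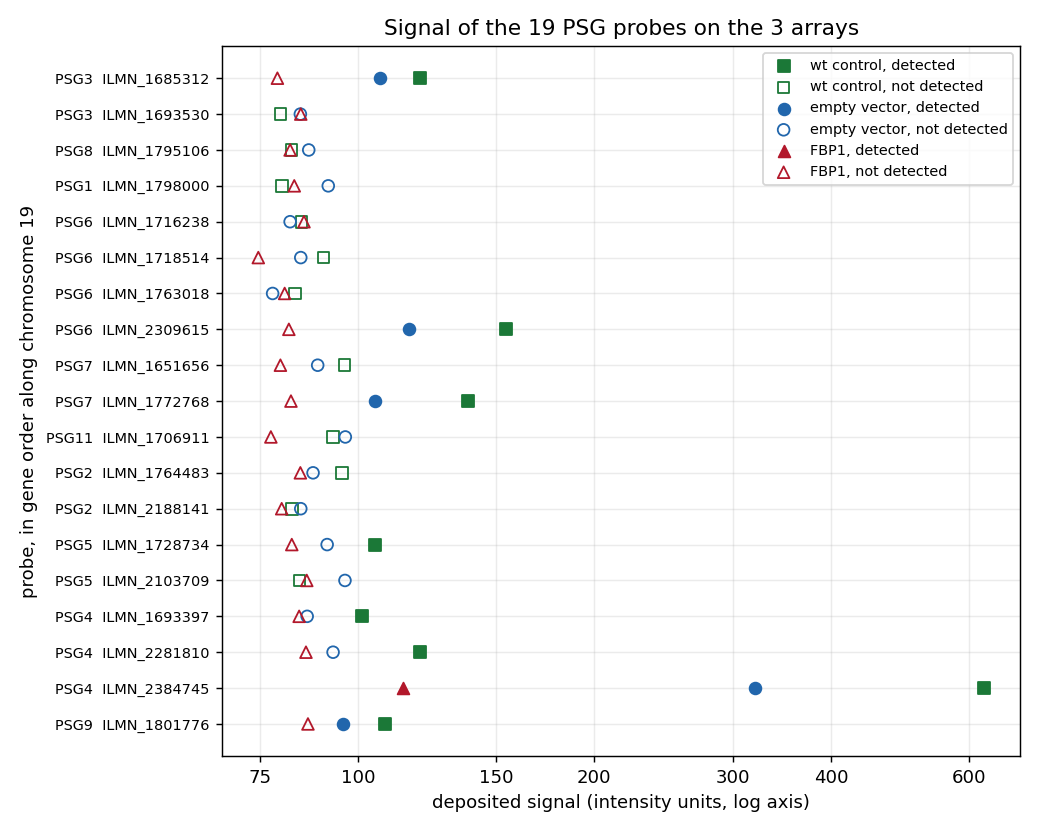
Deposited signal (horizontal log axis, intensity units) of each of the 19 PSG probes (vertical, in gene order along chromosome 19) on the wt (squares), empty vector (circles) and FBP1 (triangles) arrays, 1 array each; filled marks are detected at p under 0.01. The 8 probes with a filled square have the wt array highest and the FBP1 array lowest, and PSG4 probe ILMN_2384745 spans 114.2 to 627.0.

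PSG4 stood farthest apart. Its probe ILMN_2384745 gave deposited signals of 627.0 (wt), 320.7 (empty vector) and 114.2 (FBP1). All 3 signals were detected, with detection p-values of 2.49e-18, 6.88e-14 and 2.29e-05, and this was the 1 PSG probe detected on the FBP1 array. The normalised log2 levels were 9.04, 7.93 and 5.54.

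After normalisation, this PSG4 probe (ILMN_2384745) was 11.3-fold higher on the wt array than on the FBP1 array and 5.25-fold higher on the empty vector array than on the FBP1 array. The controls differed too, with the wt array higher by 2.16-fold. Among probes detected on at least 1 of both arrays, 0 of 22402 lay further below the empty vector array than this probe, and 2 of 22352 lay further below the wt array. Between the controls, 74 of 22198 lay lower. The fold depends on the background taken off: the ratio of the deposited signals was 5.49 for wt over FBP1 and 2.81 for empty vector over FBP1, and that of the authors' processed signals 4.18 and 2.3.

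The other PSG4 probes, which carry the same platform accession, stood close to background. Probe ILMN_2281810 had signals of 119.9 (wt), 93.0 (empty vector) and 85.9 (FBP1), and probe ILMN_1693397 had 101.1, 86.2 and 84.2. Both were detected on the wt array alone. The wt array was at least 1.8-fold above the FBP1 array for ILMN_2281810 and at least 1.2-fold for ILMN_1693397. Between the FBP1 and empty vector arrays neither probe had a measured difference, because it was detected on neither of them. The PSG4 probes thus shared their highest array, the wt control, but not the size of the difference.

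A lower bound is given where the dimmer array did not detect the probe, against whichever is higher there, the probe's own level or the lowest detected level of the whole array. That lowest level was 4.69 on the wt array, 4.70 with the empty vector and 4.68 on the FBP1 array (log2). It leaves little room below a dim probe, so bounds near 1 are weak statements. Undetected probes can also lie above that lowest level, as PSG7 probe ILMN_1651656 did at 4.85 on the wt array. The bounds are therefore a convention and not strict limits. They are rounded down and depend on the normalisation.

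PSG6, PSG7 and PSG3 each had 1 probe detected on both controls and not on the FBP1 array. PSG6 probe ILMN_2309615 had signals of 154.6 (wt), 116.2 (empty vector) and 81.7 (FBP1). The wt array was at least 3.1-fold and the empty vector array at least 1.6-fold above the FBP1 array, and the controls differed by 1.9-fold, the wt array being higher. These values hold for the normalisation used here: the ratio of deposited signals was 1.89 for wt over FBP1 and that of the authors' processed signals 1.7. PSG6 is the member with the most probes here, and its other 3 were detected on no array. Of these, ILMN_1718514 carries another transcript's accession.

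PSG7 probe ILMN_1772768 had signals of 138.3 (wt), 105.1 (empty vector) and 82.2 (FBP1). The wt array was at least 2.5-fold and the empty vector array at least 1.3-fold above the FBP1 array, and wt stood above empty vector by 1.92-fold. The ratio of deposited signals was again smaller, 1.68 for wt over FBP1, and that of the authors' processed signals was 1.55. PSG3 probe ILMN_1685312 had signals of 120.0, 106.8 and 79.0 in the same order. For PSG3 the bounds against the FBP1 array were at least 1.8-fold for the wt array and at least 1.3-fold for the empty vector array, and wt stood above empty vector by 1.36-fold, where the deposited ratios were 1.52, 1.35 and 1.12. The second probes of PSG7 (ILMN_1651656) and PSG3 (ILMN_1693530) were not detected on any array. For PSG3 that probe gave 79.7 (wt), 84.5 (empty vector) and 84.6 (FBP1), without the order of the detected probe.

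PSG9 and PSG5 were dimmer still. PSG9, a member reported to activate transforming growth factor beta, had 1 probe (ILMN_1801776), with signals of 108.2 (wt), 95.8 (empty vector) and 86.4 (FBP1). It was detected on both controls, with a detection p-value of 0.0073 on the empty vector array, close to the limit. The wt array was at least 1.4-fold above the FBP1 array, and for the empty vector array the bound was close to 1. PSG5 probe ILMN_1728734 had signals of 105.3, 91.4 and 82.4 in the same order and was detected on the wt array alone, at least 1.3-fold above each of the other arrays. The other PSG5 probe (ILMN_2103709) was detected on none, with its highest signal, 96.3, on the empty vector array.

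PSG1, PSG2, PSG8 and PSG11 had no probe detected on any array. PSG1, the member studied most as a protein, gave signals of 80.1 (wt), 91.7 (empty vector) and 83.0 (FBP1). PSG11 gave 92.9, 96.4 and 77.5 in the same order. Over all 11 undetected PSG probes the signals ran from 79.7 to 96.2 on the wt array, from 77.9 to 96.4 with the empty vector and from 74.7 to 86.1 on the FBP1 array. Their median log2 differences were -0.05 (FBP1 minus empty vector), -0.02 (FBP1 minus wt) and 0.03 (empty vector minus wt), beside a median of 0.00 over all probes. The split by detection leaves the probes that are high on the wt array out of this set, so it is not set against the detected probes. Not being detected does not show that a transcript is absent.

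The size of the differences was counted with a probe called lower when it was at least 1.5-fold lower and detected on at least 1 of both arrays. By that rule 3 of the 19 PSG probes were lower on the FBP1 array than on the empty vector array (PSG3, PSG4 and PSG6), where 2.76% of all probes were. Against the wt array 7 of 19 were lower, where 3.59% of all probes were, and the 1 detected probe that fell short was PSG4 ILMN_1693397 at -0.43. The empty vector array was lower than the wt array for 4 of 19 (PSG6, PSG7 and 2 probes of PSG4), where 1.6% of all probes were. No PSG probe was that much higher in any of these 3 comparisons, where 3.2%, 3.8% and 1.74% of all probes were. At least 2-fold lower were 1, 4 and 1 of the 19, where 0.403%, 0.597% and 0.21% of all probes were. The rule that chose the family saw these contrasts, so nothing is read from the shares. When the lower bound was counted in place of the fitted difference, a choice made after the data were seen, the counts were 2, 5 and 4 (2.64%, 3.48% and 1.51% of all probes).

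Over all 19 PSG probes, detected or not, the median log2 difference was -0.14 for FBP1 minus empty vector, -0.28 for FBP1 minus wt and -0.21 for empty vector minus wt, and the median over all probes was 0.00 in each. Differences ran from -2.39 to 0.08, from -3.50 to 0.10 and from -1.11 to 0.26. The comparisons share arrays, so they do not bear on one another as separate observations.

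**Figure D2:**
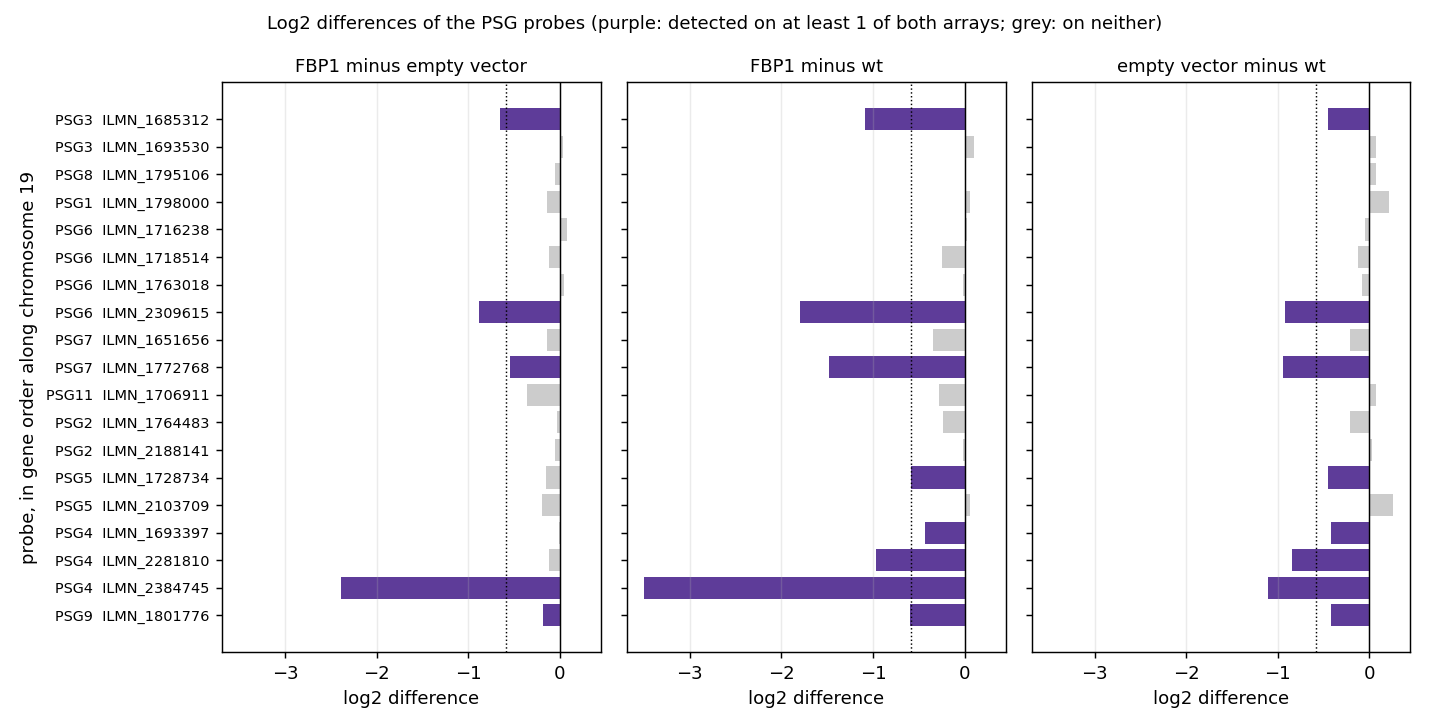
Log2 difference (horizontal) of each PSG probe (vertical, in gene order along chromosome 19) in the 3 comparisons; purple bars are detected on at least 1 of both arrays, grey bars on neither, and the dotted line marks 1.5-fold lower. The probes past the line number 3, 7 and 4 from left to right, and ILMN_2384745 of PSG4 reaches -3.50.

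The controls were not alike in these genes. At the 5 probes detected on both controls the wt array was higher, from 1.34-fold (PSG9) to 2.16-fold (PSG4). All 8 detected PSG probes were detected on the wt array, so a high wt level is in part what made them count as detected. Of the 8 probes, 7 were at background on the FBP1 array, with signals of 79.0 to 86.4 and detection p-values of 0.369 to 0.969, so their distance from the FBP1 array could not exceed their own height above background. A stepwise order, in which wt exceeded empty vector by at least 1.5-fold and empty vector exceeded FBP1 by at least 1.5-fold, was shown by 2 PSG probes (PSG4 ILMN_2384745 and PSG6 ILMN_2309615) and by 0.0998% of all probes.

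**Figure D3:**
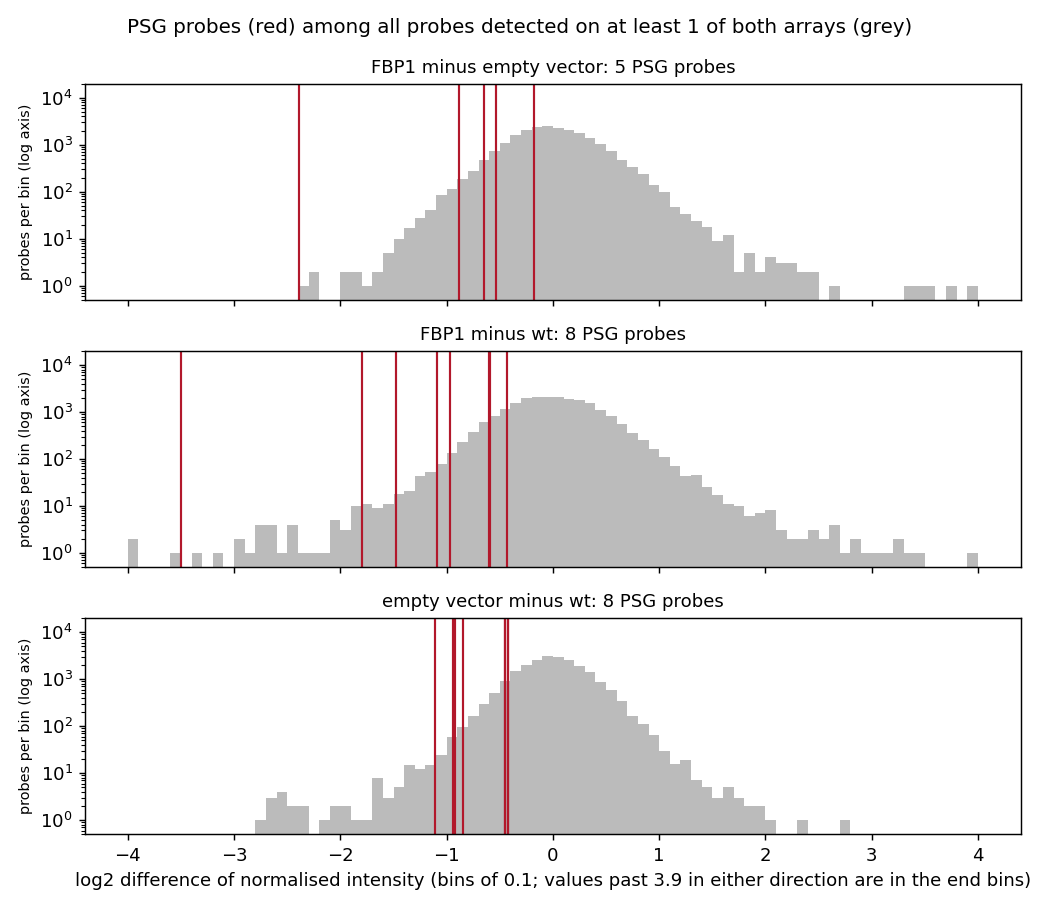
Number of probes (vertical log axis) per bin of log2 difference (horizontal) among probes detected on at least 1 of both arrays, in grey, with each detected PSG probe as a red line. PSG4 ILMN_2384745 lies at the low end of the top panel (-2.39) and the middle panel (-3.50), while the PSG lines of the lowest panel lie between -1.11 and -0.42.

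The order of the 3 arrays for PSG4 ILMN_2384745 was the same under 6 ways of normalising, whereas its size was not. FBP1 minus wt ran from -3.50 to -2.06, FBP1 minus empty vector from -2.39 to -1.2, and empty vector minus wt from -1.11 to -0.86. The smallest values came from the authors' processed signals.

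**Figure D4:**
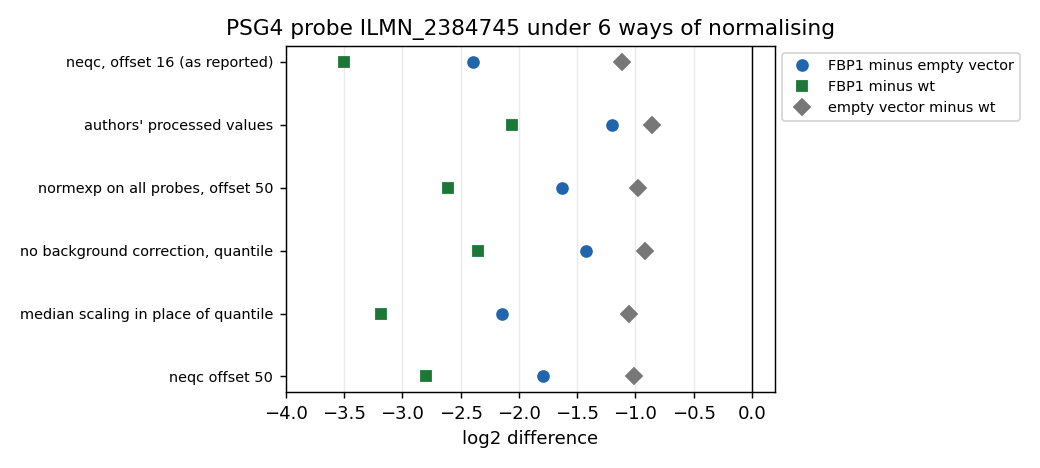
Log2 difference (horizontal) of PSG4 probe ILMN_2384745 in the 3 comparisons under 6 ways of normalising (vertical). Every mark is below 0, and in each setting FBP1 minus wt lies farthest from 0, between -3.50 and -2.06.

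The other members of the carcinoembryonic antigen family were near background. Of 13 relatives listed, 12 had a probe (14 in all), and 3 probes of CEACAM1 and CEACAM19 were detected, all of them on the wt array and none on the FBP1 array. Of all probes, 4.49% were detected on the wt array and not on the FBP1 array. CEACAM1, an adhesion receptor of epithelia and leukocytes, gave signals of 116.5 (wt), 102.2 (empty vector) and 75.9 (FBP1) at ILMN_1716815. This was the 1 probe of the 14 called lower on the FBP1 array against the wt array, at least 1.7-fold, where 3.59% of all probes were. None was called lower between the other pairs, where 2.76% (FBP1 against empty vector) and 1.6% (empty vector against wt) of all probes were. The second CEACAM1 probe (ILMN_2371724) gave 102.8, 90.2 and 88.9, and CEACAM19 (ILMN_1752335) gave 107.9, 93.4 and 90.3. CEACAM5, CEACAM6 and the pseudogene PSG10P were not detected on any array.

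Genes around the PSG cluster were counted next. Of 45 other genes within 500 kb of the PSG genes in the RefSeq table, 29 had a probe (33 in all), and 23 of the probes were detected on at least 1 array. None of the 33 was called lower in any of the 3 comparisons, where 2.76%, 3.59% and 1.6% of all probes were. Called higher were 0 (FBP1 against empty vector), 1 (FBP1 against wt) and 2 (empty vector against wt). Of all probes, 3.2%, 3.8% and 1.74% were called higher. The median differences of the detected probes were -0.11 (FBP1 minus empty vector), 0.11 (FBP1 minus wt) and 0.15 (empty vector minus wt). Against the wt array, PLAUR, the urokinase receptor gene, was lowest at -0.50 (ILMN_1691508) and LYPD3 next, at least 1.3-fold lower, while PINLYP was highest at 0.84 and the transcriptional repressor gene CIC next at 0.47. Of the other PLAUR probes, ILMN_2374340 stood at 0.14 and ILMN_2408543 at 0.34, so the probes of that gene disagreed in direction.

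Genes of the proteins that PSG1 or PSG9 have been reported to bind or activate were mostly detected as RNA on these arrays. Of 14 such genes, 11 had a probe detected on at least 1 array, among them ITGA5, ITGB1 and the galectin-1 gene LGALS1, whereas TGFB1 was not detected. Of their 20 probes, 1 was called higher and none lower on the FBP1 array against the empty vector array, and 1 lower and none higher against the wt array. Of all probes, 3.2% were higher and 2.76% lower against the empty vector array, and 3.8% and 3.59% against the wt array. The tetraspanin gene CD9, whose mouse counterpart is known as a receptor for a murine PSG, was highest against the wt array at 0.49 (ILMN_1695423) and 0.45 (ILMN_1904242), and GPC1 (-0.66, ILMN_1801516) and TGFB2 (-0.58, ILMN_1812526) were lowest. The syndecan gene SDC4 (ILMN_1663042) was the probe called higher against the empty vector array, at 0.95. Its signals were 864.4 (wt), 537.0 (empty vector) and 892.0 (FBP1), so the empty vector array was the one apart, and it was called lower than the wt array (-0.72).

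The transcription factors reported at PSG promoters were all detected on all 3 arrays. KLF4, reported to activate the PSG5 promoter, was higher on the FBP1 array at both of its probes. Its probe ILMN_2137789 gave a signal of 403.3 on the wt array, 416.3 with the empty vector and 617.0 on the FBP1 array, and ILMN_1779857 gave 228.5, 223.8 and 312.7. The log2 differences were 0.80 and 0.81 from the empty vector array and 0.89 and 0.80 from the wt array. KLF6, which binds PSG core promoters, stood at 0.23 and -0.01, SP1 at 0.09 and 0.01, and RXRA at 0.26 and 0.51. The 4 probes of GABPB1 disagreed in size, and ILMN_3272074 was the 1 called lower on the FBP1 array, at -1.15 and -0.65. Over the 11 probes of these 6 factors, 2 were called higher, both of KLF4, and 1 lower against each control. Of all probes, 3.2% were higher and 2.76% lower against the empty vector array, and 3.8% and 3.59% against the wt array.

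Trophoblast markers were counted beside the PSG genes, since the trophoblast is where these are chiefly made. Of 35 markers, 17 had a probe detected on at least 1 array: 14 (wt), 12 (empty vector) and 9 (FBP1). The summed signal of their 57 probes was 6070, 6129 and 5846. Of these, CGA, CGB3, CGB5, CSH1, CSH2 and ERVW-1, markers of the syncytiotrophoblast, were not detected on any array. Other placental markers of the list were detected: CSHL1, GCM1, HLA-G, PAPPA, PLAC1, SIGLEC6, TFAP2C and XAGE2 on all 3 arrays. CYP19A1 and KISS1 were detected on both controls and not on the FBP1 array. On a single array were CGB8, GATA2, DLX3 and HSD17B1 (wt), INSL4 and GH2 (empty vector) and CGB7 (FBP1). Of the 57 probes, 2 were called lower and none higher on the FBP1 array against the empty vector array, and 3 lower and 1 higher against the wt array. On the empty vector array 2 were lower than on the wt array and none higher. Over all probes 2.76%, 3.59% and 1.6% were lower in these comparisons, and 3.2%, 3.8% and 1.74% were higher. PAPPA, a secreted protease that cleaves insulin-like growth factor binding proteins, had signals of 274.0 (wt), 225.8 (empty vector) and 151.1 (FBP1), a log2 difference of -1.19 from the wt array. PLAC1 stood at -0.86 from the wt array, whereas HLA-G, which has close copies among the other HLA genes, stood at 0.80 and CGB7 was at least 1.3-fold higher. The part of these markers in the PSG values was not tested.

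Probes with a pattern most like that of the PSG genes were sought over the 3 arrays. The median of the 8 detected PSG probes, centred on its own mean, stood at 0.55 on the wt array, -0.09 with the empty vector and -0.47 on the FBP1 array (log2). Among 17203 detected probes with a gene name, those at the smallest Euclidean distance were SMURF2 (0.011), AMDHD2 (0.024), CCL21 (0.030), MPP2 (0.037) and CFAP276 (0.037). SMURF2, a ubiquitin ligase of the transforming growth factor beta pathway, had signals of 141.7 (wt), 117.6 (empty vector) and 100.8 (FBP1). AMDHD2 had 132.6, 110.1 and 94.0, and the chemokine gene CCL21, detected on the wt array alone, had 119.8, 99.8 and 84.3. With only 3 arrays and signals this close to background, many probes can take such a shape. The order wt above empty vector above FBP1 was shown by 11 of the 19 PSG probes, by 19.4% of all probes and by 21.8% of those detected on at least 1 array.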

How the data were processed

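Total RNA of 3 samples was read on Illumina bead arrays, 1 per group, with groups taken from the labels. The first deposited table holds an intensity and, per the file headers, a detection p-value for each probe and array, neither normalised nor background-subtracted. A second deposited table gives each probe's intensity as processed by the authors. Its medians are nearly equal between arrays, by a method the labels do not state. Of 48107 probes, 2 lacked a value on an array and were dropped. The function neqc of limma 3.58.1 (R 4.3.3, offset 16) took the background from the detection p-values and applied quantile normalisation over all probes, giving log2 levels. Those p-values do not follow intensity alone, so the background taken from them is uncertain.

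Probes were named through the platform's annotation (30112 had 1 gene, 8 several and 17985 none here), and all 19 PSG probes matched RefSeq by gene ID. With 1 array per group no test was run: probes were described by difference, by count at 1.5-fold and by lower bound. The genes named are all PSG probes, and of each other list the 2 highest and 2 lowest detected probes against the wt array, with others singled out after their values were seen. The members, lists and alternatives were chosen with earlier results of these data known. The normalisation was tested on simulated data with set folds, at bright probes only and with detection p-values that followed the signal exactly. That test therefore does not cover dim probes, which most PSG probes are. Python 3.11.15 with numpy 2.4.6, pandas 2.3.3, biopython 1.88 and matplotlib 3.10.9 did the rest.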

Additional observations from a re-analysis of the deposited data

How the results depend on the processing

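Each PSG count and median was recomputed under other settings, and a value is given here where it moved by over 1.5 times. With the authors' processed values, with no background correction and with an offset of 50, the PSG probes called lower numbered 1 for FBP1 against empty vector, 3 for FBP1 against wt and 1 for empty vector against wt. Of all probes, 0.42%, 0.821% and 0.183% were lower with the authors' values, 0.653%, 1.13% and 0.252% without background correction, and 1.01%, 1.65% and 0.451% with an offset of 50. With normexp fitted to all probes the last count was also 1 (0.397% of all probes). At 2-fold the counts were 1, 4 and 1 (0.403%, 0.597% and 0.21% of all probes). A detection limit of 0.05, no detection filter and median scaling left every count within 1.5 times of that reported. The median FBP1 minus empty vector difference was -0.21 with median scaling, -0.06 with an offset of 50 and -0.65 over detected probes only; FBP1 minus wt was -0.12 with an offset of 50 and -1.03 over detected probes; and empty vector minus wt was -0.11 with the authors' processed values, -0.12 without background correction, -0.09 with an offset of 50 and -0.65 over detected probes. A larger offset, or no subtraction, shrinks differences of dim probes by construction. The 14 differences of single PSG probes that were called kept their sign in 70 of 70 recomputed values under 5 other normalisations, and 35 of the 70 were still at least 1.5-fold. These 14 were picked for their size on the same 3 arrays, which every setting only rescales. Their sign could therefore hardly change, and the 70 values are not separate checks. No paired analysis was possible because each group has 1 array. Most PSG signals lie close to background, which limits every fold given for them.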
